A study of Mus musculus with 10 samples.

Results

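The cells described here are B lymphocytes that carried transcripts of Ms4a1 (CD20) and Cd79b in a droplet library of the whole supraspinatus tendon enthesis of mice at postnatal day 18 (P18). Members were chosen by measured counts: a cell was a member when it had at least 500 detected genes, at most 10% mitochondrial counts, at least 1 UMI each of Cd79b and Ms4a1, and no UMI of Igll1, Vpreb1 or Col1a2. A UMI is a unique molecular identifier, so 1 UMI is 1 counted transcript molecule. Of the 5396 cells kept at P18, 347 were members, which is 6.43% (exact binomial 95% interval 5.79 to 7.12). All intervals below are exact 95% intervals, Poisson for levels and Clopper-Pearson for shares, and cover counting error only. The rule names the population "mature", by excluding the surrogate light chain genes Igll1 and Vpreb1 that precursor B cells use. That name was only partly borne out by genes outside the rule, and the cells are called Ms4a1 Cd79b B cells here.

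The enthesis joins the supraspinatus tendon of the shoulder to bone. Whole entheses of wild-type C57BL/6 mice were pooled at P11, P18 and P56. Red cells were lysed, and cells without staining for the leukocyte protein Cd45 or the dead-cell dye DAPI were sorted for 10x droplets. A separate set of 7 plates of 96 wells held sorted cells of Gli1CreERT;Ai14 mice at 7 ages from P7 to P42, given tamoxifen at P5 and P7, which turns on a red fluorescent protein in cells that express the Hedgehog factor Gli1 and in their descendants. Whether that sort kept or discarded red cells is unclear from its wording. Each age was 1 library in each assay and the animals in a pool were not told apart, so no difference below could be tested over samples and no p-value is given.

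B cells are made from precursors in the bone marrow. A precursor first pairs its heavy chain with the surrogate light chain, then rearranges a kappa or lambda light chain with the Rag1 and Rag2 recombinase and displays IgM with the signalling chains Cd79a and Cd79b. A newly made, or transitional, B cell leaves the marrow with traces of the precursor programme. As it matures it adds IgD, MHC class II and receptors that guide it into lymphoid follicles.

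The P18 library held 53725468 counts in 5588 barcodes. Members together held 1341649 UMIs. Their UMIs per cell ran from 869 through a median of 2687 to 35795, and their detected genes from 542 through 1169 to 5816. They were compared with 807 B-cell precursors of the same library (Cd79b and Igll1 or Vpreb1 present, Col1a2 absent), whose median was 9092 UMIs, and with 1205 mesenchymal cells (at least 10 UMIs of Col1a2, median 10230). Members were therefore the shallower cells, and shares of cells with a UMI are also given after each cell was thinned to 1000 UMIs, which left out 1 member, 2 mesenchymal cells and no precursor. Between libraries, 4 to 9 barcodes were shared by each pair, and no member carried a shared barcode.

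Both genes that set the rule are given as a description. Ms4a1 (ENSMUSG00000024673, chromosome 19, 11249679 to 11266149) encodes a membrane protein of B cells, and Cd79b (ENSMUSG00000040592, chromosome 11, 106311341 to 106314562) a signalling chain of the B-cell receptor. Positions are those of RefSeq for GRCm38.p6, the build called mm10. Members had up to 19 UMIs of Ms4a1 with a median of 3, and up to 31 of Cd79b with a median of 9. Of the 347, 72 had a single Ms4a1 UMI, 13 a single Cd79b UMI, 3 a single UMI of each, and 265 at least 2 of each. Just outside the threshold stood 877 cells that met every criterion except for an Ms4a1 count of 0. Of these, 80.4% had Igkc and 48.2% had Cd74, beside 91.7% and 77.8% of the 72 members with a single Ms4a1 UMI. Rag1 was found in 43.7% of the 877, in 33.3% of the 72 and in 12.8% of the 265. Another 47 cells were kept out by Igll1 or Vpreb1 alone, 41 by Col1a2 alone and 5 by a Cd79b count of 0.

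Some members held transcripts of other blood cells. A set of 16 members, defined after these counts were seen as cells with at least 10 UMIs and 0.2% of their UMIs from markers of another blood lineage, is called the mixed cells. They held 17.3% of all member UMIs. Haemoglobin stood at 27687 UMIs in 1 of them and 7633 in another, which together made 99.7% of the haemoglobin in the members, while the next cell had 3. All 1023 UMIs of the macrophage gene Retnla and 306 of the complement genes C1qa, C1qb and C1qc came from 1 cell, which also had 343 class II UMIs. Neutrophil markers summed to 18952 CPM (UMIs of a gene per 1000000 UMIs of the summed cells) in all members and to 355 without the mixed cells. Monocyte and macrophage markers went from 1961 to 217, dendritic-cell markers from 631 to 438, and erythroid and platelet markers from 26541 to 109. Most of these markers defined the mixed cells, so the falls follow in large part from the definition. Whether the mixed cells are droplets with more than 1 cell was not tested. A doublet score placed 9 of the 16 among the 232 cells with the highest scores, along with 8 other members. Precursors were screened in the same way and 31 were mixed. Ratios to precursors are given for all cells and then without the mixed cells of both populations, 331 members against 776 precursors.

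Transcripts of all parts of the antigen receptor were present. Ighm, the IgM heavy chain, was found in 346 of 347 members at 3332 CPM (3235 to 3432), with a median of 12 UMIs per cell and a highest value of 77. Cd79a, the partner of Cd79b, was in 98.8% of members at 2530 CPM (2445 to 2616), 1.87-fold the level in precursors (2.11-fold without mixed cells). The kappa chain Igkc was in 92.8% of members at 6792 CPM (6654 to 6933), with a median of 22 UMIs and a highest value of 173. Igkc thus stood 11.9-fold above precursors (13.1-fold without mixed cells), and Ighm only 2.63-fold (2.91-fold). Of the 4 marker genes of the population, Ms4a1 and Cd79b were in the rule, and the other 2, Ighm and Igkc, were in nearly all members.

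These shares were far above free RNA in the library. After thinning, Ighm was in 92.5% of members and 2.99% of mesenchymal cells, Cd79a in 91.6% and 1.91%, Igkc in 88.7% and 2.0%, and Cd74 in 85.3% and 0.914%. Unthinned, mesenchymal cells had Ighm in 9.38%, Cd79a in 5.89%, Igkc in 5.31%, Cd74 in 3.98% and Ms4a1 in 1.41%. The neutrophil gene S100a8 was in 29.1% of members and 43.9% of mesenchymal cells, and after thinning in 11.6% and 7.56%.

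**Figure D1:**
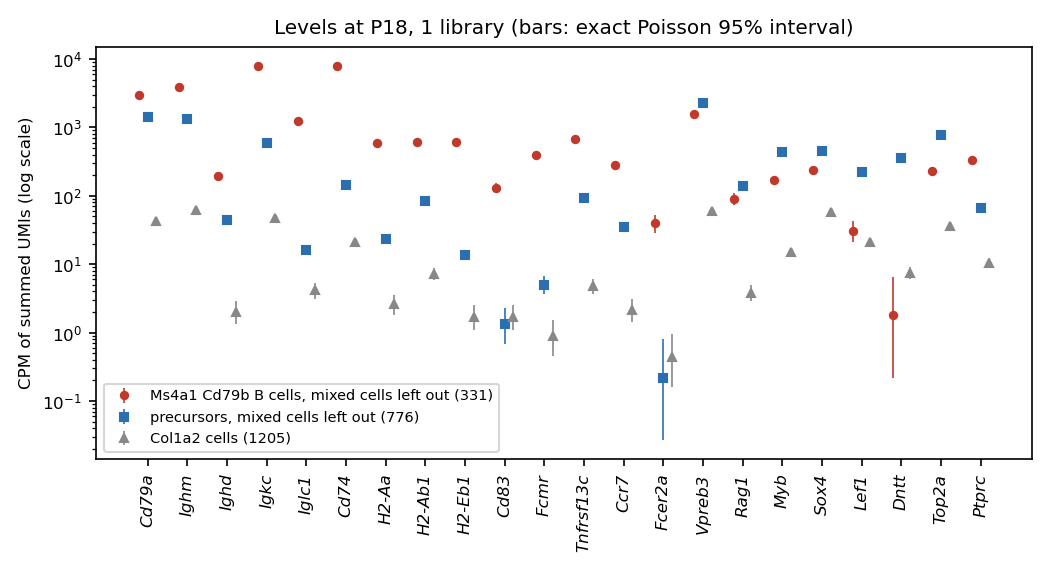
Levels of 22 genes as CPM of summed UMIs (log scale) at P18 in 331 Ms4a1 Cd79b B cells and 776 precursors, mixed cells left out of both, and in 1205 Col1a2 cells. Bars are exact Poisson 95% intervals. Light chain, class II and follicular genes lie above the precursors in the B cells, and Dntt, Lef1 and Top2a lie below.

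Over 7088 genes with at least 100 UMIs in members and precursors together, 185 (2.61%) were at least 4-fold higher in members and 205 (2.89%) at least 4-fold lower, and the median log2 ratio was 0.03. Without the mixed cells 153 of 6813 genes (2.25%) were higher and 248 (3.64%) lower, with a median of 0.06. Calls on the higher side made up 47.4% of all calls with all cells, 21.9% when each cell was weighted equally and 37.2% when immunoglobulin, ribosomal protein and mitochondrial genes were left out of the scaling, which moved the median log2 ratio of all genes to -0.10. With cells over 10000 UMIs left out of both populations, 82 of 4261 genes were higher and 175 lower. Igll1, Vpreb1, Ms4a1, Cd79b and Col1a2 were left out of the gene counts by list, since the rule set them. Without mixed cells the 10 genes with the highest ratio included Cd83, Ctsh, Fcmr, Iglc1, Iglc2, Cd74, Iglc3, H2-Eb1 and Sorl1. With all cells, Retnla and 4 haemoglobin genes led, all from the mixed cells named above. The lowest ratios without mixed cells were those of Dntt, Vpreb2, Tmem176b, Bcat1, Nbdy, Cntln, Cdca7l, Klk8, Ldlrad4 and Dnph1. Of these, Vpreb2 is a close relative of Vpreb1, which the rule left out of members.

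Receptor chains were higher as a group. Of the 8 listed chains, 7 were outside the rule and were tested, and 5 of the 7 were at least 4-fold higher in members, with a median log2 ratio of 3.57 (3.71 without mixed cells). The lambda constant genes stood out: Iglc1 was at 1070 CPM (1016 to 1127) in members and 15.3 (12.9 to 18.0) in precursors, a 70.0-fold ratio (77.4-fold without mixed cells). Iglc2 was 61.2-fold higher and Iglc3 46.1-fold (67.6-fold and 50.8-fold). With cells over 10000 UMIs left out of both populations, the log2 ratios of Iglc1, Iglc2 and Iglc3 were 4.89, 5.22 and 4.57. With all cells they were 6.13, 5.94 and 5.53. Igkc was at 2.64 in that setting, beside 3.57 with all cells. Iglc2 and Iglc3 are near-identical copies, so the split of reads between them is uncertain. Ighd, the IgD heavy chain, was 4.00-fold higher (4.35-fold), a value at the 4-fold limit. It was found in 39.8% of members (34.6 to 45.1) and 35.7% of precursors, and after thinning in 18.8% and 4.96%. Thus 137 of 347 members had transcripts of both IgM and IgD.

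Class switching, the replacement of IgM by another isotype, was hardly detected. Of the 6 switched heavy chain genes, Ighg2b had 6 UMIs and Igha 1, and Ighg1, Ighg2c, Ighg3 and Ighe had none. A switched isotype was found in 6 of 347 members (1.73%, 0.637 to 3.73) and in 40 of 807 precursors (4.96%). These shares were not thinned and precursors were the deeper cells. The summed levels were closer, at 5.22 CPM in members and 6.93 in precursors. Of 8 plasma-cell genes, 2 (Jchain and Tnfrsf17) were at 0 UMIs, and the others included Mzb1 in 58.2% of members, Irf4 in 40.9% and Xbp1 in 18.2%. Of 8 germinal-centre genes 2 were at 0, and a UMI of any of the 8 was in 9.22% of members, beside 48.2% of mesenchymal cells.

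Most members used more kappa than lambda, but transcripts of both were common in the same cell. Igkc exceeded the sum of Iglc1, Iglc2 and Iglc3 in 276 members (79.5%, 74.9 to 83.7), lambda exceeded Igkc in 64 (18.4%, 14.5 to 22.9), and 7 were equal. Both kinds were detected in 249 members (71.8%), Igkc alone in 73, lambda alone in 24 and neither in 1. Among the 24 cells with lambda alone, lambda UMIs ran from 1 through a median of 25 to 100. Iglc1 exceeded Iglc2 and Iglc3 together in 10 of those cells and was below them in 11, and 21 of them had UMIs on both sides.

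Lambda transcripts in kappa cells were more frequent in members than in precursors. Of 264 members with at least 10 Igkc UMIs, 206 had a lambda UMI (78.0%, 72.5 to 82.9), with a median of 3 and a highest value of 89. Of 214 precursors with at least 10 Igkc UMIs, 27 did (12.6%, 8.48 to 17.8), with a median of 0, although their median depth was 8742.5 UMIs against 2881.5. After thinning the shares were 59.8% and 4.67%. The kappa level of these sets also differed. Median Igkc was 28 UMIs in the members and 17 in the precursors, and 9 and 2 after thinning. A lambda UMI was found in 1.74% of all mesenchymal cells, and in 12 of the 23 mesenchymal cells (52.2%, 30.6 to 73.2) that had at least 10 Igkc UMIs. Without mixed cells the shares in kappa cells were 77.5% and 12.5%. Whether the lambda UMIs are transcripts of the same cell, free RNA or reads shared between constant genes was not tested.

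**Figure D2:**
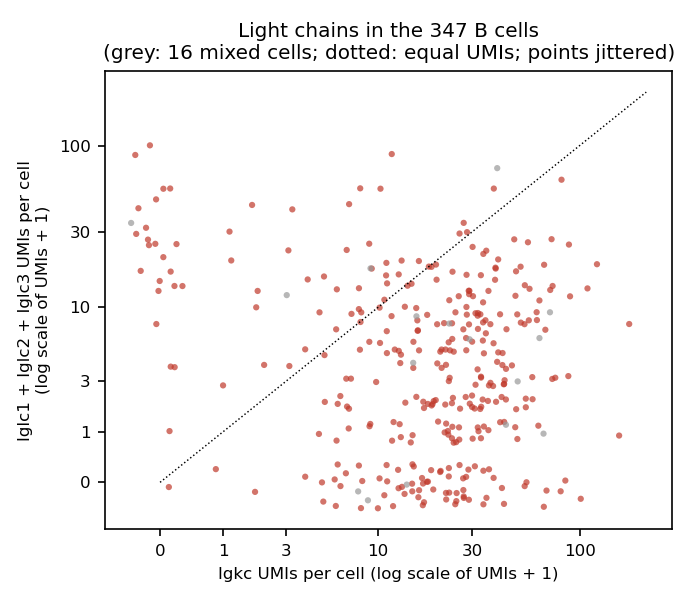
Igkc UMIs per cell (x axis) against summed Iglc1, Iglc2 and Iglc3 UMIs (y axis), both on a log scale of UMIs + 1, for the 347 members, with the 16 mixed cells in grey. Points lie mostly right of the dotted line of equal UMIs (276 cells), a set of 24 cells stands at 0 Igkc, and most cells with high Igkc carry a few lambda UMIs.

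Variable segments were seen rarely, since the libraries read the 3' end of transcripts. Heavy chain variable genes gave 36 UMIs in 32 members over 22 genes. Kappa variable genes gave 117 UMIs in 92 members over 39 genes, the most common being Igkv19-93 in 13 cells. In only 6 members did 1 Igkv gene hold at least 75% of 2 or more UMIs, and these 6 used 5 genes. In precursors, by comparison, Igkv1-35 alone gave 92 of 243 kappa variable UMIs. The counts are too few to say how varied the receptors of the members were.

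Antigen presentation genes were the group with the largest median ratio among the B-cell lists, with and without the mixed cells. Cd74, the invariant chain that escorts MHC class II, was in 90.8% of members at 7519 CPM (7373 to 7667) and in 26.3% of precursors at 147 CPM (139 to 155), a 51.2-fold ratio (54.5-fold without mixed cells). Of the 10 listed genes 7 were tested and 6 were at least 4-fold higher, with a median log2 ratio of 4.94. Without mixed cells 6 of 6 were, with a median of 3.91. The class II chains themselves were found in fewer cells than Cd74. H2-Aa was in 39.8% of members at 717 CPM, H2-Ab1 in 45.8% at 710 CPM and H2-Eb1 in 38.9% at 669 CPM. Their ratios were 30.7-fold, 8.81-fold and 49.4-fold (25.8-fold, 7.34-fold and 44.2-fold without mixed cells). With cells over 10000 UMIs left out of both populations, the log2 ratio of Cd74 was 4.79, beside 5.68 with all cells. Those of H2-Aa, H2-Ab1 and H2-Eb1 were 4.08, 2.76 and 4.86, beside 4.94, 3.14 and 5.63. The peptide loading gene H2-DMb2 was in 18.2% of members at 70.1 CPM (56.6 to 85.7), 96.8-fold above precursors (103-fold). H2-DMb1 had 75 UMIs in all members and 20 without the mixed cells, so most of its signal came from those cells. H2-Ob and H2-Oa, subunits of the modulator of H2-DM, were 3.99-fold and 8.29-fold higher (4.36-fold and 9.91-fold). Ciita, the master activator of class II genes, had only 17 UMIs in members and was not tested.

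Promoter sequences are shown for 4 class II genes that members expressed at different levels, to show what letters they share. The RefSeq table for GRCm38.p6 held promoters for 7 of the 10 listed genes, and each run is the 250 bases before a gene's start, 5' to 3' on the gene's strand. Capitals mark TGATTGG, the core of the Y box, and AACNNATGATG, letters of the X box, both known elements of class II promoters. They were searched on both strands and do not overlap, and the letters of the X box are those that 4 of these promoters share before the Y box, so they were chosen after the promoters had been read.
H2-Aa (chr17:34287824-34288073, minus strand): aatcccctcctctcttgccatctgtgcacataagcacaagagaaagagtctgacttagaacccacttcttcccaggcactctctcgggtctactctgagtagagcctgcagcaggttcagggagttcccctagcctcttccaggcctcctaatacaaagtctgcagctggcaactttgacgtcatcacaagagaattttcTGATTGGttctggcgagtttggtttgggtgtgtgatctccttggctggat
H2-Eb1 (chr17:34305617-34305866, plus strand): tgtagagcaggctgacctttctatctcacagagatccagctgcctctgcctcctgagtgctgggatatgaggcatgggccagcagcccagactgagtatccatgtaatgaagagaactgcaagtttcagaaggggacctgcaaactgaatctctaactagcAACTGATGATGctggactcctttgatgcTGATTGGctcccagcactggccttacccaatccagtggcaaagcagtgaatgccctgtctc
H2-DMb2 (chr17:34144999-34145248, plus strand): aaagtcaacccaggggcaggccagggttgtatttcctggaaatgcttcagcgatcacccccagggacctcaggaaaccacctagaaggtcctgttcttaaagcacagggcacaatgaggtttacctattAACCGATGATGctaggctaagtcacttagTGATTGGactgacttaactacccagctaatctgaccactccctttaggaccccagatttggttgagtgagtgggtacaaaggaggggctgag
H2-Ob (chr17:34238655-34238904, plus strand): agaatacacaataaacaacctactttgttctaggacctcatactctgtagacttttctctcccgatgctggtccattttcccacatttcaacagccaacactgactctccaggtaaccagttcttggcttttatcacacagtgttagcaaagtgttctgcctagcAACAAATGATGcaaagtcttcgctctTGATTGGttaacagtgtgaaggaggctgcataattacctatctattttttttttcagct

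The Y box letters were in 6 of the 8 promoters read and the X box letters in 4 of 8, those of H2-Eb1, H2-DMb1, H2-DMb2 and H2-Ob. Over all 32851 promoters in the table, 7.23% held the Y box letters, 0.119% the X box letters and 0.0274% both. In H2-Eb1 the Y box letters began 61 bases before the start and the X box letters 89, in H2-DMb2 92 and 121, and in H2-Aa the Y box letters began 50 bases before the start. H2-Ob, with both, was 3.99-fold above precursors, and H2-Aa, without the X box letters, 30.7-fold. H2-DMa had neither in the windows read and was 12.5-fold above precursors. That is a log2 ratio of 3.64, and it was 3.12 without the mixed cells. A match is a description of letters, not of a bound site. The X box letters were taken from 4 of these promoters, so these 4 had to match, and a box with other letters would be missed. The lack of a match, as in H2-Aa, therefore does not show that an X box is absent.

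Genes that dampen or tune receptor signals were higher in members. Fcmr, an IgM Fc receptor, was in 51.9% of members at 339 CPM (309 to 372) and 4.83% of precursors at 4.76 CPM, a 71.3-fold ratio (80.4-fold). All 6 tested inhibitory receptor genes were at least 2-fold higher and 2 at least 4-fold, with a median log2 ratio of 1.68 (1.71 without mixed cells). At 2-fold, 10.5% of all genes were called higher. The phosphatase gene Ptpn6 was 5.96-fold higher (7.00-fold), in 64.6% of members. Cd22, a lectin that restrains the receptor, was 4.20-fold higher (4.70-fold), at 49.9 CPM. Cd72 was at 627 CPM and 2.96-fold higher (3.29-fold). Co-receptors and signal transducers moved less: of 12 tested, only Bank1, an adaptor, passed 4-fold with all cells, at 28.8-fold (36.4-fold), and the median log2 ratio was 0.60.

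Co-stimulation and cytokine receptor genes were mostly higher, with 5 of 7 tested at 4-fold or more and a median log2 ratio of 2.71 (2.85 without mixed cells). Tnfrsf13c, the receptor for the survival factor BAFF, was in 71.2% of members at 586 CPM (546 to 628), 6.54-fold above precursors (7.2-fold). Il21r was 13.7-fold higher (15.4-fold) and Cd40, the receptor for T-cell help, 7.76-fold (7.91-fold). Cd83, which stabilises class II at the surface, was 59.7-fold higher (98.9-fold), in 24.2% of members. With cells over 10000 UMIs left out of both populations, the log2 ratio of Cd40 was 1.78 and under 4-fold, beside 2.96 with all cells, and that of Il2rg was 1.51 beside 2.18. Cd83, Il21r and Tnfrsf13c stayed past 4-fold there, at 4.53, 3.18 and 2.13, beside 5.90, 3.78 and 2.71 with all cells.

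Genes of homing and of follicular B cells were detected in part of the members. Ccr7, a receptor that guides lymphocytes into lymphoid tissue, was in 42.9% of members at 244 CPM (219 to 272), 7.32-fold above precursors (8.14-fold). Fcer2a, the CD23 marker of follicular B cells, had 46 UMIs in 7.49% of members (4.95 to 10.8) and 2 UMIs in precursors, a ratio of 166 (43.4 to 1410). Cxcr5, the follicle entry receptor, was in 8.65% of members. Cr2, the complement receptor CD21, had 5 UMIs. Of 7 tested follicular genes 5 were at least 4-fold higher, with a median log2 ratio of 2.21 (6 of 7 and 2.17 without mixed cells). Of 9 homing genes 4 were, with a median of 1.57 (1.73). With cells over 10000 UMIs left out of both populations, 3 of these 4 fell under 4-fold, at log2 ratios of 1.40 for Klf2, 1.11 for S1pr1 and 0.80 for Ltb (2.26, 2.09 and 2.09 with all cells), and Ighd was at 1.46. Ccr7 stayed at 2.87. The transcription factor genes Pou2f2 and Ikzf3 were 6.96-fold and 5.99-fold higher (7.46-fold and 6.47-fold), while Ebf1 and Pax5, which set B-cell identity, were at 0.82-fold and 1.51-fold. Of 16 listed factors, Pou2f2 and Ikzf3 were at least 4-fold higher and Lef1 at least 4-fold lower.

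Precursor genes were lower, but several were still present. Dntt, the enzyme that adds bases at receptor joints, had 2 UMIs in members against 347 CPM in precursors, and Vpreb2 had 2 UMIs against 105 CPM. Without mixed cells these were 198-fold (54.7 to 1634) and 60.3-fold (16.7 to 499) lower. The factor gene Lef1 was 8.37-fold lower (7.23-fold) and Rag2 4.81-fold lower (4.13-fold). Kit and Erg, genes of early progenitors, were at 0 UMIs in members. Counting 3 UMIs as the floor over the group, this makes Kit at least 10.6-fold lower than in precursors and Erg at least 4.35-fold. Of 12 tested precursor genes 5 were at least 4-fold lower, with a median log2 ratio of -1.31 (-1.15 without mixed cells). Vpreb2 is counted among them, although the rule removed its relative Vpreb1 from members, so its ratio is not independent of the rule.

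Other genes of newly made B cells were lower than in precursors but still present. Of 10 tested transitional and immature genes, 6 were at least 2-fold lower and 2 at least 4-fold, with a median log2 ratio of -1.10 (4, 3 and -0.91 without mixed cells), where 12.9% of all genes were at least 2-fold lower. Vpreb3, an endoplasmic reticulum protein of immature B cells, was in 86.2% of members at 1366 CPM (1304 to 1430) and in 98.6% of precursors at 2200 CPM, 1.61-fold lower (1.45-fold). Rag1 was in 17.0% of members (13.2 to 21.4) at 76.0 CPM, 1.77-fold lower than in precursors (1.54-fold), and after thinning in 8.09% of members, 16.9% of precursors and 0.333% of mesenchymal cells. Il7r was in 17.0% and Myb in 30.8% of members, 2.17-fold and 2.83-fold lower. Cd24a was in 70.6% at 539 CPM, 1.88-fold lower. Without mixed cells, 182 of 331 members (55.0%, 49.5 to 60.4) had a UMI of Rag1, Rag2, Il7r, Myb or Sox4. Mesenchymal cells, of which many express Sox4, had such a UMI in 28.96% and neutrophils in 10.9%. After thinning the shares were 34.8% of members, 5.40% of mesenchymal cells, 0.399% of neutrophils and 72.7% of precursors. With Sox4 left out they were 23.0%, 1.41%, 0.399% and 57.0%. The share in members was thus above that in cells that should lack these genes and below that in precursors, and the label "mature" was not borne out for all members.

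Members without class II transcripts held most of the Rag1. The 331 members without mixed cells were divided, after these values were seen, by the summed UMIs of H2-Aa, H2-Ab1 and H2-Eb1. At 0 UMIs stood 157 cells (47.4%), at 1 or 2 UMIs 41, and at 3 or more 133 (40.2%), of which 55 had 15 or more. These are ranges of a count and not cell types, and the 41 cells lie beside the limit. The median depth was 2372 UMIs at 0 and 2903 at 3 or more. Rag1 was in 49 of 157 cells at 0 (31.2%, 24.1 to 39.1), in 5 of 41 and in 4 of 133 at 3 or more (3.01%, 0.825 to 7.52). As a level it was 201 CPM (160 to 248) against 7.94 (2.16 to 20.3), and after thinning the shares were 17.3% and 0.752%. The deeper cells thus had the less Rag1.

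Other immature genes followed the same order. Vpreb3 was at 2203 CPM (2063 to 2350) in cells with no class II UMI and 970 (886 to 1060) in cells with 3 or more. Sox4 was at 354 against 115.1 CPM, Myb at 248 against 69.4, Il7r at 131 against 57.5, and Cd93, a marker of transitional cells, at 62.1 against 17.9. Over 2667 genes with at least 50 UMIs in both ranges together, 88 (3.3%) were at least 2-fold lower in the cells with 3 or more and 51 (1.91%) at least 2-fold higher, with a median log2 ratio of -0.10. Of 6 tested transitional genes 5 were lower, and of 6 precursor genes all were, lists that share Vpreb3, Rag1, Il7r, Sox4 and Myb. Cd93 was under the minimum of 50 UMIs. Their median log2 ratios were -1.41 and -1.56.

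Some genes of antigen presentation and of later B cells were higher in the cells with 3 or more class II UMIs, and others of the same lists were not. Of 4 tested presentation genes outside the 3 that divided the cells, 3 were at least 2-fold higher, of 7 homing genes 2, of 7 co-stimulation genes 1 and of 5 follicular genes 1. The medians of the homing, co-stimulation and follicular lists were -0.13, 0.11 and 0.49 on the log2 scale, with Klf2 at 0.66-fold, Tnfrsf13c at 0.77-fold and S1pr1 at 1.14-fold. Of 10 cell-cycle genes 5 were higher, with a median of 0.99. Top2a was at 282 against 74.1 CPM and Mki67 at 139 against 57.3. In the cells with 3 or more, 1 cell held 25.4% of the Top2a UMIs and 1 cell 37.1% of the Mki67 UMIs. At least 5 UMIs of 12 cell-cycle genes were in 9 of 133 of those cells (6.77%, 3.14 to 12.5). At 0 they were in 4 of 157 (2.55%, 0.698 to 6.39), and these intervals overlap. The share was highest at 1 or 2 class II UMIs, in 11 of 41 cells (26.8%, 14.2 to 42.9). The class II ranges were set on counts that were not thinned, and the part of depth was not tested. Cd74, which was not used to divide the cells, was at 12330 CPM (12026 to 12641) in cells with 3 or more and 3978 in cells with none. Ccr7 was in 58.6% (49.8 to 67.1) and 27.4% (20.6 to 35.1), at 403 and 172 CPM. Fcer2a was in 15.04% and 2.55%, and Ighd in 51.9% and 29.9%, at 242 and 172 CPM. H2-DMb2 and H2-DMa were 6.83-fold and 5.98-fold higher. Gpr183, a receptor that positions B cells around follicles, was at 37 UMIs against 4, a ratio of 7.68 (2.76 to 29.7). Receptor chains did not move as a group: none of the 7 tested was 2-fold apart, with a median log2 ratio of -0.30. Ighd was at 1.41-fold (1.04 to 1.91), Igkc at 0.98-fold, Ighm at 0.60-fold, and Iglc1 and Iglc3 at 0.52-fold each. A UMI of Rag1 or Rag2 occurred together with one of Fcer2a or Cr2 in 2 of 331 cells.

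**Figure D3:**
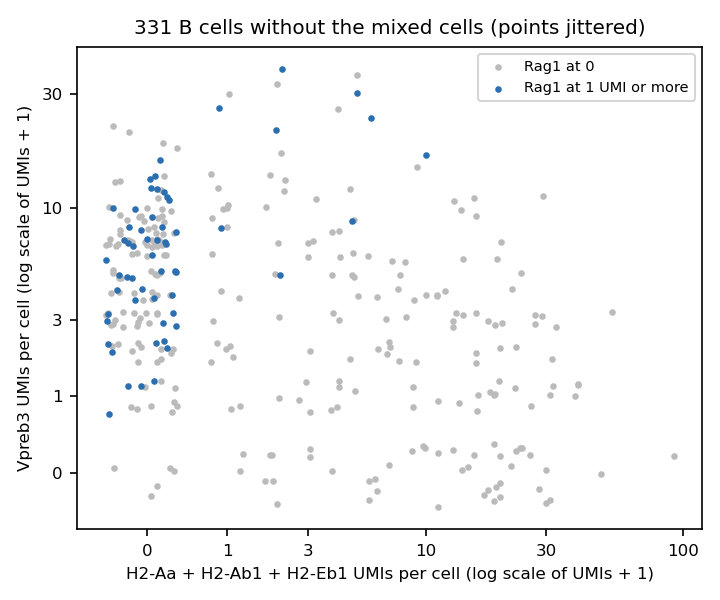
Summed H2-Aa, H2-Ab1 and H2-Eb1 UMIs per cell (x axis) against Vpreb3 UMIs (y axis), both on a log scale of UMIs + 1, for 331 members without mixed cells. Cells with a Rag1 UMI (blue) sit mainly at 0 class II UMIs, 49 of 58 of them. The highest Vpreb3 count, 38 UMIs, was in a deep cell (13706 UMIs in total) with 2 class II UMIs. The highest count at 0 class II UMIs was 22.

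**Figure D4:**
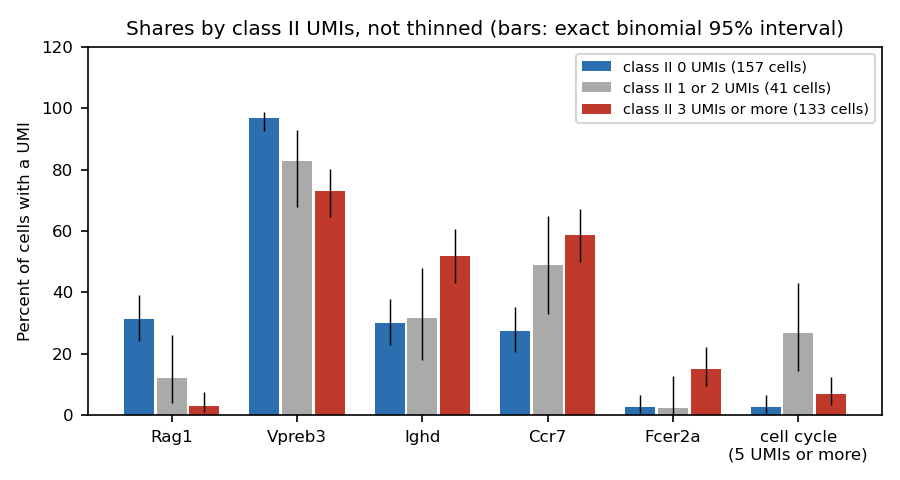
Percent of cells with a UMI of each gene, or with at least 5 UMIs of 12 cell-cycle genes, in members with 0 (157 cells), 1 or 2 (41 cells) and 3 or more (133 cells) class II UMIs, with exact binomial 95% intervals. Rag1 was in 31.2% of cells at 0 and 3.01% at 3 or more, and Ccr7 in 27.4% and 58.6%.

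Few members carried many cell-cycle transcripts. All 15 cell-cycle genes were at least 2-fold lower than in precursors, and 2 were at least 4-fold lower (3 without mixed cells), with a median log2 ratio of -1.73. Members with at least 5 UMIs of 12 of these genes numbered 24 of 331 (7.25%, 4.70 to 10.6). They were deep cells, with 6248 to 26210 UMIs and a median of 10004, against a median of 2548 in the other 307. All 12 unmixed members over 10000 UMIs were among them, and 8 of the 24 were among the cells with the highest doublet scores. Their part in the result was not tested. After thinning, at least 2 UMIs of these genes were found in 6.97% of members and 60.1% of precursors. Of the 24, 11 had 1 or 2 class II UMIs, and 17 had Il7r (70.8%) beside 12.7% of the other 307. The 8 of them with Rag1 made 33.3%, at a level of 47.7 CPM against 102 in the others.

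**Figure D5:**
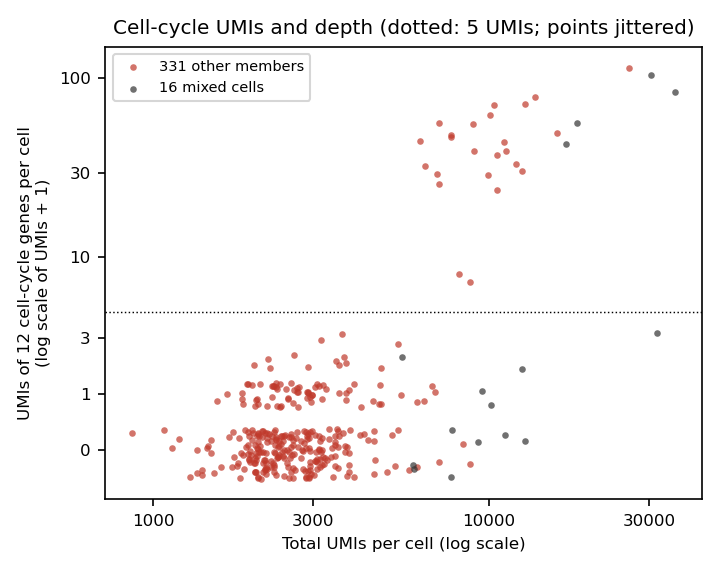
Total UMIs per cell (x axis, log scale) against UMIs of 12 cell-cycle genes (y axis, log scale of UMIs + 1) in the 331 members and the 16 mixed cells. The 24 unmixed cells above the dotted line at 5 UMIs all have at least 6248 UMIs.

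Ptprc, which encodes the Cd45 protein that the sort was meant to leave out, was present as RNA. It was in 62.8% of members at 332 CPM (302 to 364), with a highest value of 11 UMIs in a cell, and in 47.8% of precursors at 73.3 CPM, a 4.53-fold ratio (5.06-fold). After thinning it was in 29.5% of members and 0.582% of mesenchymal cells. Of the 6 leukocyte genes listed, Ptprc and Cd52 were at least 4-fold higher in members than in precursors, and the median log2 ratio was 1.14. The files hold no measure of the protein.

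Low values of the neutrophil, monocyte, macrophage, dendritic and erythroid markers outside the mixed cells follow in large part from how those cells were defined. T-cell and NK-cell markers were not used to define them. Of 11 T-cell and NK-cell genes 10 were at 0 UMIs and Trac had 6 UMIs, so the defining T-cell chains Cd3d, Cd3e and Cd3g were not detected at this depth. B-1 and marginal-zone genes gave no clear picture: Cd5 had 11 UMIs, and S100a6, 5.04-fold above precursors with all cells, was 2.50-fold below them without the mixed cells. Immediate-early and heat-shock genes, which respond to tissue dissociation as well as to receptor signals, had 6 of 10 at least 4-fold higher (4 of 9 without mixed cells), with a median log2 ratio of 2.31 (1.95). Nr4a1, which antigen receptor signals induce, was at 118 CPM, 9.26-fold above precursors (8.74-fold). After thinning, mesenchymal cells had Nr4a1 more often (18.7%) than members did without the mixed cells (5.76%), and the part of free RNA was not tested.

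Cells that met the rule were found mainly at P18. At P11, 3 of 2952 kept cells met the rule (0.102%, 0.0210 to 0.297), and at P56 none of 5131 did, which allows a share of up to 0.0585% (3 counts of the total, the limit used here for a count of 0). Precursors were 12 cells at P11, 807 at P18 and none at P56. The 3 cells at P11 had 5, 4 and 15 UMIs of Ms4a1, 19, 27 and 14 of Ighm, and 26, 24 and 27 of Cd74. The first had no Igkc and 47 UMIs of Iglc1, and the others had 18 and 43 UMIs of Igkc. None of the 3 had Rag1. On the plates, none of 672 wells had a count of Cd79b or Ms4a1, which allows up to 0.446% of wells. Age, pool and library cannot be told apart, since each age was 1 pool.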

How the data were processed

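The authors deposited raw counts as whole numbers, for each gene (31053 in the droplet files) in each barcode of 3 droplet libraries or each well of 7 plates. Per the file headers the droplet matrices were written by 10x software 3.1.0 (P11, P18) and 3.0.2 (P56). Per the submitters' processing notes the build was mm10. The aligner is not given in the sources used here.

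Cells were kept at 500 or more detected genes and at most 10% mitochondrial counts. UMIs were summed over the cells of a population and scaled to 1000000 (CPM) with Python 3.11.15, numpy 2.4.6, scipy 1.17.1 and pandas 2.3.3. A gene was called at a 4-fold ratio of summed levels among genes with at least 100 UMIs over both populations. A count of 0 was set to a floor of 3 counts for a ratio. Doublet scores came from scrublet (through scanpy 1.11.5), and the highest scores were removed only as an alternative. Scripts were tested on simulated data.

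The members, gene lists, tests and alternatives were chosen with earlier results of these data known. Named genes are those of 28 fixed lists, plus the 10 highest and 10 lowest ratios and the 10 with the most UMIs, leaving out the genes of the rule and variable segments. Variable segments and motif letters were looked at separately. Doublet removal, cell filters, thresholds, scaling, thinning and the mixed cells were varied. Samples carry no replicates, so intervals describe counting in 1 library. Values of a few listed genes are not reported here.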

Additional observations from a re-analysis of the deposited data

How the results depend on the processing

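No paired analysis was possible because the ages had a single library each, so leaving out a replicate could not be done either. The number of members was 230 instead of 347 at 1000 or more genes and at most 5% mitochondrial counts. The level of Cd74, 7519 CPM, was 7253 under that filter, 8484 with at least 2 UMIs of each rule gene, 7311 with 1 Col1a2 UMI allowed, 8075 without the highest doublet scores, 8010 without members that had other markers, 7791 without mixed cells, 8494 as a mean over cells and 10638 without immunoglobulin, ribosomal protein and mitochondrial genes in the scaling. Genes higher in members numbered 185, and 82 without cells over 10000 UMIs, 122 as a mean over cells, 742 at 2-fold and 411 at a minimum of 20 UMIs. Genes lower numbered 205, and 312 without the highest doublet scores, 321 without members that had other markers, 435 as a mean over cells, 912 at 2-fold and 381 at a minimum of 20 UMIs. The cause of these shifts was not tested, apart from the looser thresholds, which admit more genes. In the setting without members that had other markers, the precursors were not filtered, so the 2 populations were not treated alike.

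An Ighd UMI was in 39.8% of members and at least 2 in 15.3%. Cd74 was in 85.3% of members thinned to 1000 UMIs, 78.7% at 500 and 90.9% at 2000. Members with a clear Igkv gene numbered 6, and 79 with 1 UMI sufficing or 1 with 3 required. The share of kappa cells with lambda was 78.0%, and 59.8% after thinning. An alternative ratio was counted only where the gene kept at least 100 UMIs over both populations in that setting. For 61 named genes and 683 alternative ratios, 623 kept their direction and side of the 4-fold limit, 55 fell short of it and 5 reversed. These 5, as log2 ratios, were S100a6 at -1.32 and Lyz2 at -0.025 without mixed cells, and Ngp at -3.92, Lcn2 at -3.17 and Lyz2 at -0.59 without members that had other markers. With cells over 10000 UMIs left out, 33 of the 61 genes kept their side, 12 fell short and the rest were not counted. Without mixed cells 42 kept it, 3 fell short, 2 reversed and the rest were not counted. The settings on mixed cells, deep cells, the class II ranges and lambda in kappa cells were chosen after seeing the data. Depth limits genes such as Ciita, Cr2 and Cd5, found in few cells.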

Other observations

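The members came from pooled entheses, and their sex-chromosome transcripts were mixed. Of the 347 members, 110 had Xist without a UMI of the 4 Y-linked genes listed, 125 had a Y-linked gene without Xist, 9 had both and 103 had neither. Without the mixed cells 5 of 331 had both. Among precursors 246 of 807 had Xist alone, 412 a Y-linked gene alone and 19 both.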
